A study of Mus musculus with 12 samples.

Results

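The 55 genes described here encode the synaptic vesicle and release machinery. They were picked by a rule on gene symbols among the 38720 genes listed for retinal ganglion cells (RGCs) and for the remaining retinal cells (non-RGCs), and no measured value entered the choice. They are the synaptotagmins (Syt), synapsins (Syn1 to Syn3), synaptobrevins (Vamp), syntaxin-binding proteins (Stxbp), neuronal syntaxins (Stx1a among them), Rab3 GTPases, complexins (Cplx), SV2 proteins, Snap25, Snap91, RIM proteins (Rims), Munc13 proteins (Unc13), Bassoon (Bsn) and Piccolo (Pclo). RNA came from retinas of C57/BL6 mice on postnatal day 0 (P0), either WT or mKO. In mKO mice the Cre recombinase is driven from Math5, a transcription factor gene of the progenitors that give rise to RGCs, and removes exons 16 to 19 of floxed Ezh2, the part that encodes the SET domain of this histone H3K27 methyltransferase. Cre driven in this way reaches only part of the RGCs, and bulk RNA does not separate cells that recombined from cells that did not. The study describes the Math5-Cre line as a knock-in, and found Cre expression in mKO but not in WT mice. The genotypes thus differ in the Cre allele as well as in Ezh2, and effects of these differences cannot be told apart here. RGCs were captured from dissociated retinas with magnetic beads against Thy-1 (CD90), and the cells left after capture were the non-RGCs. There were 3 libraries for each genotype and fraction, 12 in all, of poly-A RNA. In bulk RNA, fewer cells of a type and less RNA per cell cannot be told apart.

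Neurotransmitter is stored in synaptic vesicles and leaves the cell when a vesicle fuses with the presynaptic membrane. Fusion is driven by the SNARE proteins: synaptobrevin on the vesicle joins syntaxin and SNAP-25 on the membrane. Complexin binds SNAREs, synaptotagmin senses calcium, Rab3 and synapsin tether vesicles, and RIM, Munc13, Bassoon and Piccolo build the active zone where vesicles dock and are primed. RGCs are the projection neurons of the retina, and at birth their axons have reached the brain while most retinal synapses are still to form.

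The libraries held 7139633 to 13014004 reads on genes, and their values were recovered from the deposited genotype means as described under the processing. Normalised reads, the unit used for mKO against WT, are reads divided by the size factor of the library. Ezh2, the targeted gene, had 1354, 1476 and 1443 normalised reads in mKO RGCs and 1190, 1206 and 1678 in WT RGCs (log2 fold change 0.09, limma adjusted p = 0.637), and its groups also overlapped in non-RGCs. Reads were summed over the whole gene, so this value does not test the loss of exons 16 to 19. The WT RGC library of lowest depth, called C, stood apart: 39 of the 52 release genes tested had their lowest WT value there, and its summed progenitor markers came to 1734 RPM (reads scaled to a library total of 1000000 reads on genes) against 1040 and 1089 in the other WT RGC libraries. Its summed photoreceptor markers came to 813 RPM, against 575 and 580. The 12 RGC markers (among them Rbpms, Pou4f1, Thy1 and Nefl) summed to 2619 to 2766 RPM in WT RGCs and to 513 to 539 in WT non-RGCs, so RGC RNA was enriched in the captured fraction, while progenitor and photoreceptor markers were detected in it too. Amacrine markers summed to 449 to 553 RPM in WT RGCs and to 1011 to 1148 in WT non-RGCs. Microglia markers were also enriched by the capture, at 167 to 242 RPM in WT RGCs against 1.71 to 20.2 in WT non-RGCs. Blood and pigment epithelium markers were low, but higher in every mKO library than in every WT library of the same fraction.

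In WT retina the release genes were mostly enriched in the captured fraction. Levels between fractions were compared in RPM, with no test because the fractions were normalised separately. Of the 55 genes, 35 were higher in every WT RGC library than in every WT non-RGC library, 11 were lower and 9 overlapped. Of all 16517 genes compared, 27% were higher in this way and 31.6% lower. The median ratio of RGCs to non-RGCs was 1.88 in WT mice. In mKO mice, 37 were higher, 12 lower and 6 overlapped, with a median ratio of 2.09, beside 29.2% and 40.5% of all genes.

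The genes with the steepest enrichment were Syn2, a synapsin that coats vesicles, and Syt13, an atypical synaptotagmin. Syn2 had 119, 123 and 64.6 RPM in WT RGCs and 4.61, 5.51 and 3.24 in WT non-RGCs, a ratio of 22.9. Syt13 had 283, 287 and 236 against 10.8, 11.98 and 13.4, a ratio of 22.3. Syt4, Syt3 and Sv2c followed with ratios of 9.80, 9.76 and 8.61. The lowest ratios among genes with reads in WT RGCs were those of Cplx4, Syt10 and Cplx3. Cplx3 and Cplx4 are the complexins known from the ribbon synapses of the retina, and Syt10, a synaptotagmin, had at most 21 reads in any WT library and a ratio of 0.367. Cplx3 had 30.3, 36.3 and 54.3 RPM in WT RGCs and 95.4, 105 and 77.7 in WT non-RGCs, a ratio of 0.436, with the highest RGC value in library C. Cplx4 had 1.54, 1.80 and 2.45 against 7.32, 7.35 and 5.68, a ratio of 0.285. Within the complexins, Cplx1 was 4.65 times higher in RGCs, Cplx2 had a ratio of 1.01, and Cplx3 and Cplx4 were lower.

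Other families were divided in the same manner. Stx1a, a syntaxin of the presynaptic membrane, was 5.24 times higher in WT RGCs. Vamp2, the main neuronal synaptobrevin, had a ratio of 1.30, while Vamp3 and Vamp8, which serve fusion in many cell types, had ratios of 0.504 and 0.693. Sv2a and Sv2c had ratios of 2.01 and 8.61, and Sv2b one of 0.612. Among active zone genes, Rims4 had the highest ratio, 5.05, and Bsn and Pclo had 1.96 and 2.65.

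**Figure D1:**
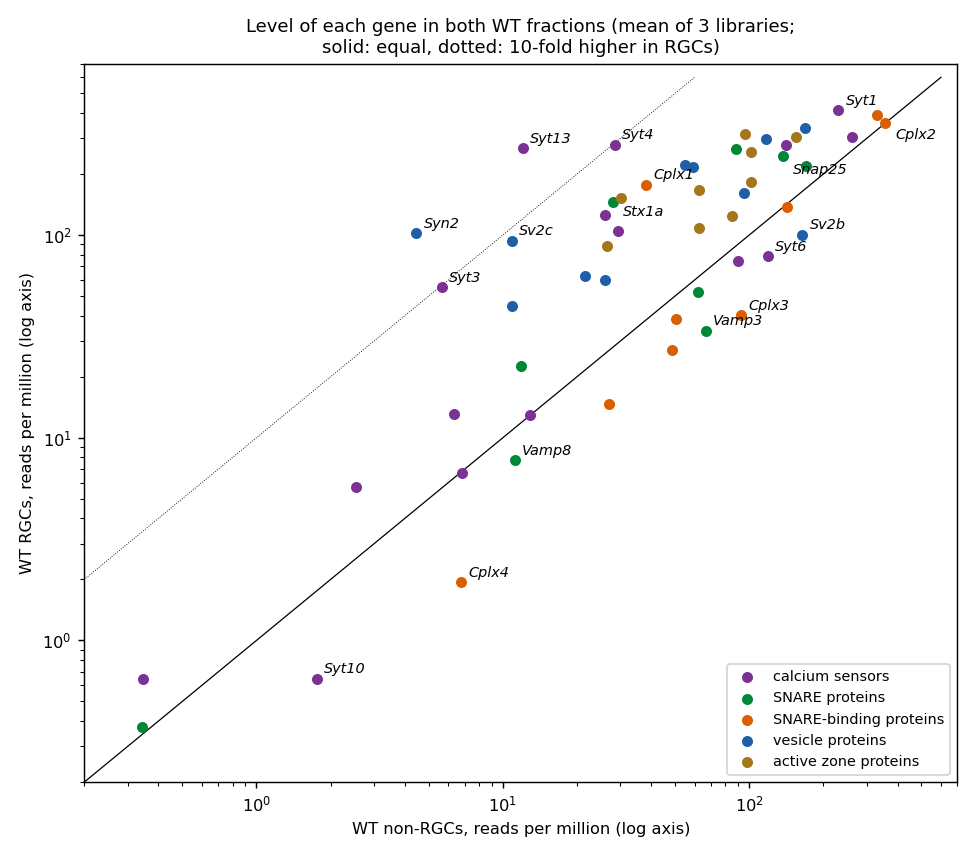
Mean RPM of each release gene in WT non-RGCs (horizontal, log axis) and WT RGCs (vertical, log axis), 3 libraries each, coloured by role; the solid line marks equal levels and the dotted line a 10-fold higher level in RGCs. Most points lie above the solid line, with Syn2 and Syt13 above the dotted line and Cplx3, Cplx4, Sv2b and Vamp3 below the solid one; Syt8, with no reads in WT RGCs, is not drawn.

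Per kilobase of exon, the highest levels in WT RGCs included those of Cplx1 at 81.0 RPKM (RPM divided by the length of the exons in kilobases), Sv2a at 73.1, Cplx2 at 72.7 and Rab3a at 72.1. The order is close: 13 genes lay above 45, ending with Syn1 at 65.6, Vamp2 at 57.7 and Syt1 at 49.6, and each overlapped the next in the order. Of the 54 pairs of neighbours in the whole order, 49 overlapped in their libraries. Duplicates were removed before counting, which limits the reads per base of highly covered genes. The effect of this on levels, ratios and fold changes was not tested. In WT non-RGCs the order was led by Cplx2 at 72.0, and the highest levels also included Syt11 at 50.1 and Vamp2 at 44.4. At the bottom, Syt8 never had more than 1 read in any library, and Vamp5 never more than 6.

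In RGCs more release genes fell than rose in mKO mice. Of the 52 genes tested, 17 fell and 4 rose (limma, Benjamini-Hochberg adjusted p under 0.05 over all 16085 genes tested). The falls took in Rab3a, Cplx1, Stx1a, Vamp2, Snap25, Sv2a and Syt1, and the rises were Vamp4, Stxbp4, Unc13b and Stxbp6. Over all genes tested, 21.2% fell and 16.3% rose, while 32.7% of the release genes fell and 7.69% rose. RGC markers were lower in the same libraries: 10 of the 12 were called lower, with a median log2 fold change of −0.47 over the list. With the trend of each library with GC content removed, 8 were called lower. With that of reads per base removed as well, 2 were, with a median of −0.07. The RGC markers summed to 2059 to 2130 RPM in mKO RGCs and 2619 to 2766 in WT RGCs. Medians were also below 0 for amacrine (−0.31), photoreceptor (−0.44) and progenitor markers (−0.43), with 4, 3 and 3 of 8 called lower. Glial, endothelial and microglia lists were below 0 too, while horizontal cell (0.06), blood (1.30) and pigment epithelium lists (1.52) were above. The part of these markers in the falls of the release genes was not tested. All mKO libraries lay below all WT libraries in 19 genes and above them in 8, where 28.2% and 24.8% of all genes were separate in this way. The median log2 fold change was −0.14 for the release genes and −0.002 for all genes. The changes were modest: Rab3a, 1.64 times higher in WT, alone among the 21 reached a 1.5-fold change. At an unadjusted p under 0.05 with that fold, Rab3a was lower and Pclo higher, where 6.22% and 10% of all genes passed.

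**Figure D2:**
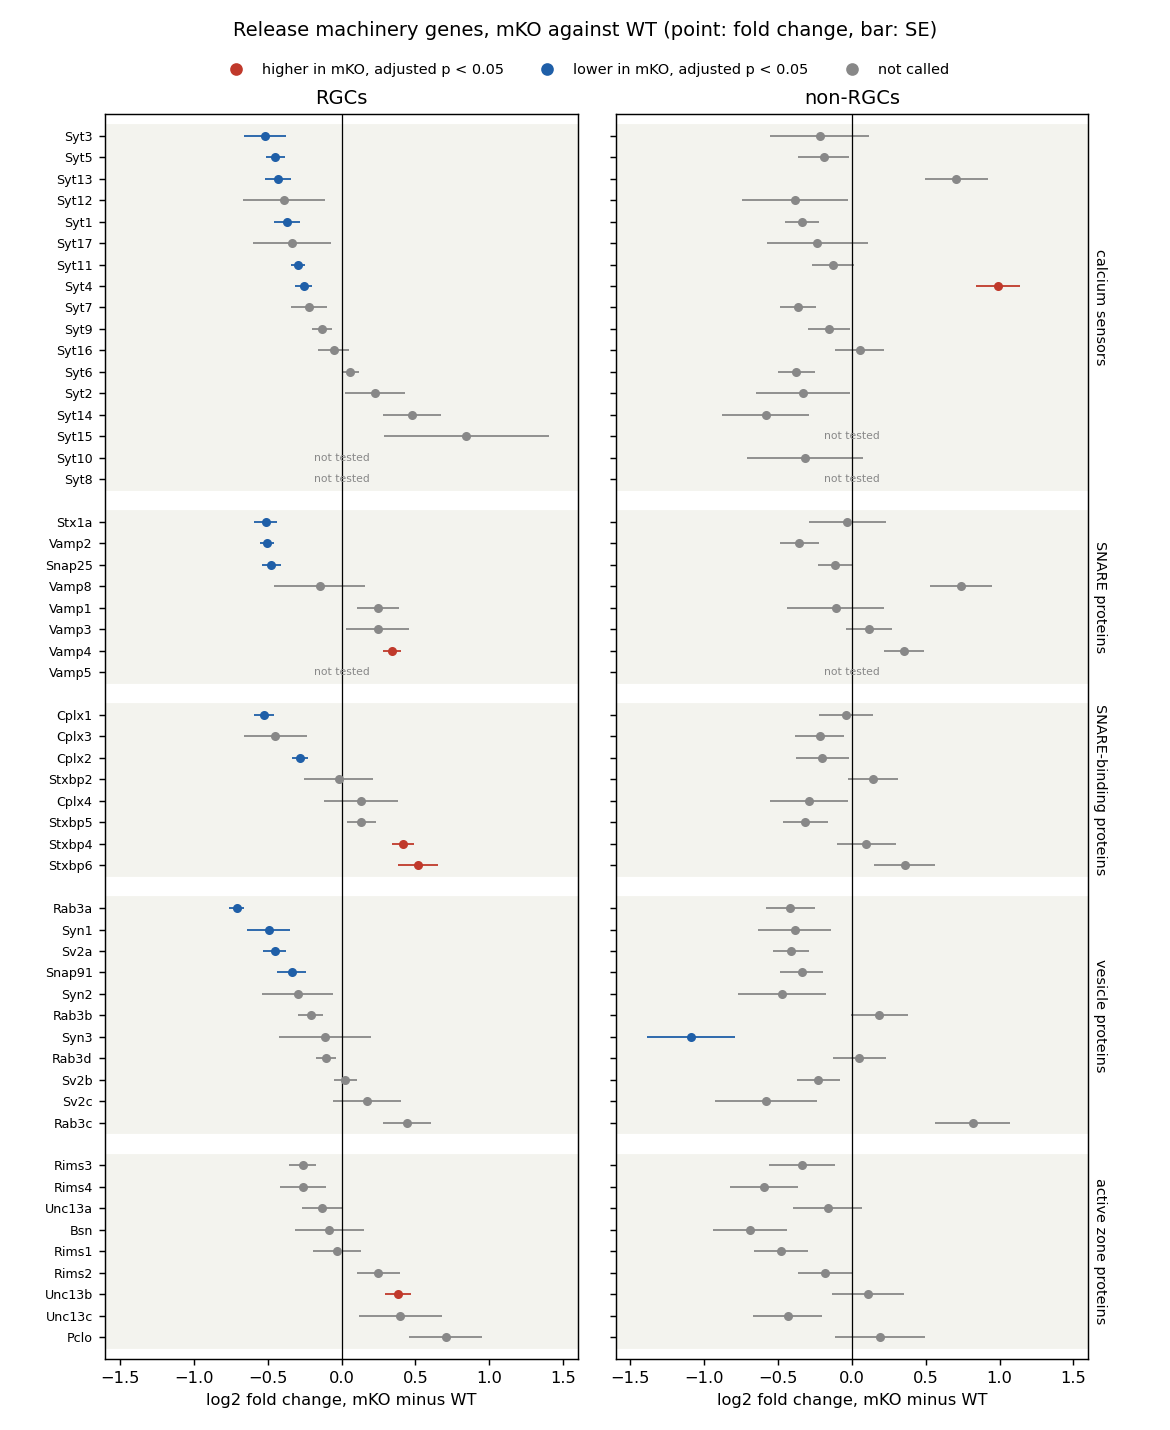
Log2 fold change, mKO minus WT, of the release genes reported by name in RGCs (left) and non-RGCs (right), with genes grouped by role; points are limma estimates from 3 against 3 libraries, bars are 1 SE, blue and red mark genes called lower and higher, and grey marks genes not called. In RGCs the blue points lie in the upper 4 groups and the active zone group holds none, while in non-RGCs Syt4 is red and Syn3 blue.

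The SNARE proteins held 4 falls and 1 rise among 8 tested. Vamp2 (chr11:69088490-69092384, GRCm38) had 1893, 1944 and 1967 normalised reads in mKO RGCs and 2790, 2776 and 2688 in WT RGCs. The groups were far apart beside the spread within each, and the log2 fold change was −0.51 ± 0.05 (SE, limma adjusted p = 0.000679). Snap25 (chr2:136713453-136782428), the membrane SNARE that contributes 2 helices to the fusion complex, had 2169, 2171 and 2306 against 3105, 3260 and 2885 (−0.48 ± 0.06, adjusted p = 0.00169). Stx1a had 1232, 1303 and 1292 in mKO against 1990, 1862 and 1635 in WT (−0.52 ± 0.08, adjusted p = 0.00306), again without overlap.

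Vamp4 moved the other way. This synaptobrevin is known for traffic at the trans-Golgi network and for recycling of vesicles in bulk rather than for fast release. It had 858, 837 and 803 normalised reads in mKO RGCs and 657, 638 and 675 in WT RGCs, with all mKO libraries above all WT libraries (0.34 ± 0.06, adjusted p = 0.0049). Vamp1 and Vamp3, at log2 fold changes of 0.25 and 0.25, and Vamp8, at −0.15, were not called.

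Among the SNARE-binding proteins, 3 of 9 fell and 2 rose. Cplx1, the complexin that clamps and then promotes fusion in fast neurons, had 1516, 1577 and 1520 normalised reads in mKO RGCs and 2280, 2351 and 2031 in WT RGCs (−0.53 ± 0.07, adjusted p = 0.00153). Cplx2 fell less, from 4501, 4523 and 4415 in WT to 3490, 3824 and 3754 in mKO (−0.28 ± 0.05, adjusted p = 0.00726). For both complexins the groups were separate. Stxbp4, which binds syntaxin-4 in insulin-responsive cells and has no established part in synaptic release, rose from 488, 449 and 513 to 642, 648 and 642 (0.42 ± 0.07, adjusted p = 0.00488). Stxbp6, or amisyn, which holds syntaxin and SNAP-25 in a complex without synaptobrevin, rose from 152, 193 and 204 to 271, 266 and 246 (0.52 ± 0.14, adjusted p = 0.0235).

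Of the proteins on the vesicle, 4 of 11 fell and none of the 11 rose. Rab3a (chr8:70754679-70758677), the most abundant Rab GTPase of synaptic vesicles, showed the steepest fall: 1202, 1228 and 1250 normalised reads in mKO RGCs against 1979, 2069 and 1975 in WT RGCs (−0.71 ± 0.05, adjusted p = 0.000644). Sv2a, a transporter-like vesicle glycoprotein, had 2974, 3154 and 3150 against 4429, 4528 and 3775 (−0.45 ± 0.08, adjusted p = 0.00492). Both were separate from WT in every library. Syn1 had 1882, 1861 and 1939 in mKO and 3045, 3022 and 2066 in WT, so that its call leaned on libraries A and B of WT (−0.49 ± 0.15, adjusted p = 0.0349). Snap91 (AP180), which recruits clathrin to vesicles being retrieved, fell by 0.34 on the log2 scale (adjusted p = 0.0332). The paralogues of Rab3a were not called: Rab3b, Rab3c and Rab3d had log2 fold changes of −0.21, 0.44 and −0.11. The difference between paralogues was not tested.

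The synaptotagmins held 6 falls and no rise among 15 tested. Syt1, the main sensor for fast release, had 3888, 4016 and 4081 normalised reads in mKO RGCs and 5307, 5685 and 4554 in WT RGCs (−0.37 ± 0.09, adjusted p = 0.0144). Syt5 had 948, 998 and 936 against 1369, 1348 and 1218 (−0.45 ± 0.07, adjusted p = 0.0025). Syt11, a form that does not sense calcium, had 3065, 3120 and 3098 against 3712, 3867 and 3796 (−0.29 ± 0.05, adjusted p = 0.00337). None of these overlapped. Syt13 (chr2:92915098-92956058) had 2391, 2566 and 2499 in mKO and 3542, 3632 and 2925 in WT (−0.43 ± 0.09, adjusted p = 0.0093), and Syt4 had 2830, 3006 and 2924 against 3475, 3682 and 3309 (−0.26 ± 0.06, adjusted p = 0.0138). Syt3 also fell, by 0.52 on the log2 scale (adjusted p = 0.0269). Syt2 and Syt7, sensors used at fast and at sustained synapses, had log2 fold changes of 0.23 and −0.22 and were not called.

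The active zone proteins differed from the other roles in their count, with 1 rise and no fall among 9 tested, although a difference between roles was not tested. Unc13b (Munc13-2, a priming factor) had 1834, 1973 and 2292 normalised reads in mKO RGCs and 1643, 1512 and 1505 in WT RGCs (0.38 ± 0.09, adjusted p = 0.0149). Unc13a (Munc13-1) had 2640, 2799 and 3283 against 3668, 3315 and 2633, which overlapped (−0.13 ± 0.13, adjusted p = 0.47). Rims1 had 2152, 2145 and 2332 against 2565, 2629 and 1699 (−0.03 ± 0.16, adjusted p = 0.898), and Bsn had 3532, 3028 and 3914 against 4086, 4852 and 2507 (−0.08 ± 0.23, adjusted p = 0.804). In each of these 3 genes WT library C was the lowest. Without that library, Bsn (log2 fold change −0.36), Unc13a, Rims1, Rims3 and Rims4 were called as well. The count for the active zone proteins therefore depended on WT library C. Pclo, the largest scaffold of the active zone, had 3240, 2736 and 3932 against 1968, 2858 and 1430, an overlap of 1 WT library with the mKO libraries (0.70 ± 0.25, 95% interval 0.12 to 1.29, adjusted p = 0.0621).

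**Figure D3:**
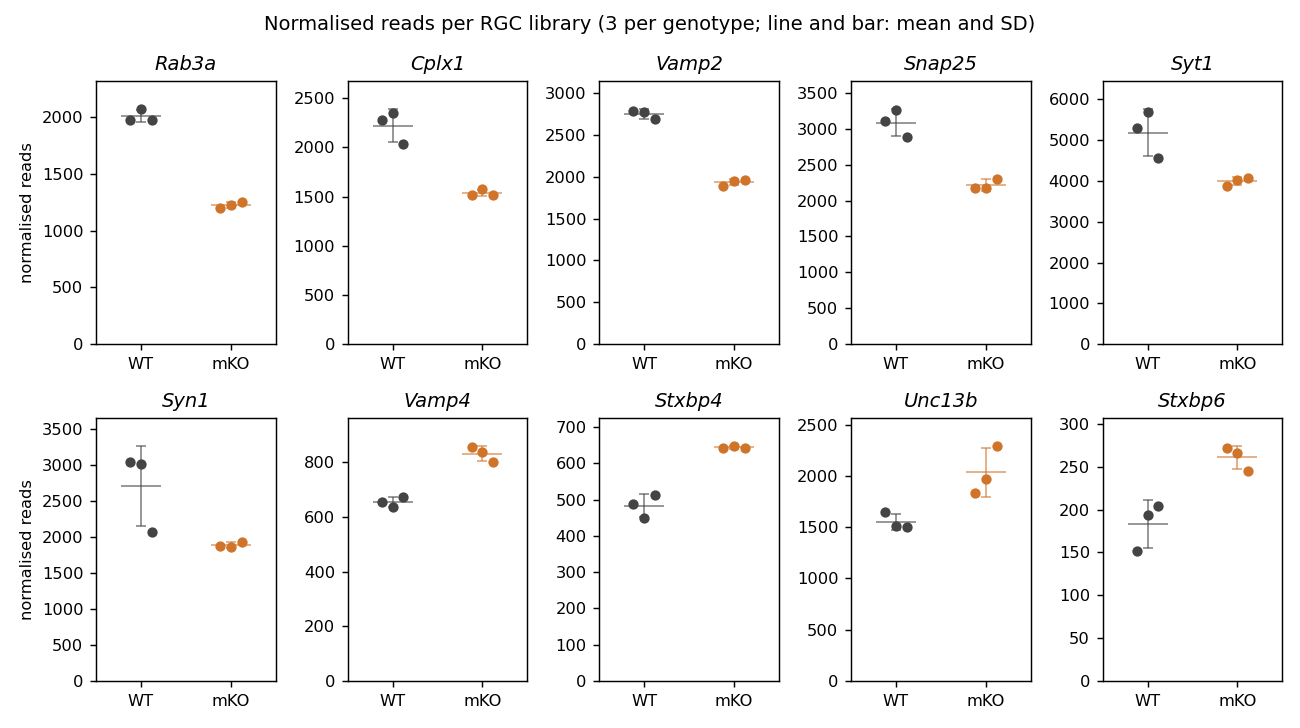
Normalised reads in each RGC library for 6 genes that fell in mKO mice (Rab3a, Cplx1, Vamp2, Snap25, Syt1, Syn1) and the 4 that rose (Vamp4, Stxbp4, Unc13b, Stxbp6); each point is a library, lines and bars are the mean and SD of 3, and every axis starts at 0. In Syn1 WT library C, at 2066, lies near the mKO libraries, while in Rab3a all 3 WT libraries lie at 1975 to 2069.

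The number of calls depended on WT library C. Without it, 35 release genes were called, 29 lower and 6 higher, and all 21 above were among them. That is 67.3% of the release genes tested, where 27.7% of all genes fell and 23.2% rose without this library. The genes added included Bsn, Unc13a, Rims1, Rims3, Rims4, Syn2 and Syt7. Leaving out any other RGC library gave 14 to 19 calls, or 26.9% to 36.5% of the release genes tested where 23.5% to 31.5% of all genes were called, and 14 of the 21 genes were called in every such fit. The 7 that were not included Snap91, Syn1, Syt3, Stxbp6, Syt1 and Syt4. Scaling to total reads instead of the size factors raised the median of all genes by 0.12 on the log2 scale in RGCs and turned the split of all called genes from 43.5% to 63.2% higher. For the release genes this scaling gave 12 lower and 8 higher calls in place of 17 and 4. No called gene changed direction, but Bsn, Rab3d, Rims1, Stxbp2, Syn3 and Syt16, none of them called, went from below to above 0.

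Base composition moved with the change. Across the 15185 genes with a known value, genes with more GC in their exons had lower log2 fold changes in RGCs (rho of Spearman = −0.63), and across the 52 release genes rho was −0.58. These are descriptions over genes that share 6 libraries. The 4 genes that rose had exons of 43.4% to 44.3% GC, and the 17 that fell had a median of 53.7%. Among release genes with at least 50% GC, 12 of 29 fell and none of the 29 rose, where 36.7% and 1.98% of all such genes did. Below 50% GC, 5 of 23 fell and 4 rose, where 7.81% and 28.6% of all such genes did.

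When the trend of each library with GC content was removed before the test, 7 genes remained called, all of them falls, and no rise remained. They included Rab3a (−0.37, adjusted p = 0.0092), Snap25 (−0.90, adjusted p = 0.00167), Syt1 (−0.61, adjusted p = 0.00891), Syt4 (−0.61, adjusted p = 0.00287), Snap91 (−0.50, adjusted p = 0.0257) and Syt11 (−0.20, adjusted p = 0.0355). That is 13.5% of the release genes tested, against 8.92% of all genes that fell and 4.93% that rose on that scale. Snap25, Syt4, Syt1 and Snap91 are the 4 called falls with less than 45% GC in their exons, at 39.2%, 40.7%, 43.1% and 44.9%, and Snap25 is the release gene with the lowest GC content of all. When the trend with reads per base was removed as well, Snap25 was the 1 gene still called (−0.59 ± 0.07, adjusted p = 0.00961), 1.92% of the release genes, where 4.33% of all genes fell and 1.84% rose. Among the others, Vamp2 was at −0.03 and Cplx1 at 0.00 on that scale. Reads per base is partly a measure of the expression level itself, so removing its trend also removes changes shared by highly expressed genes.

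**Figure D4:**
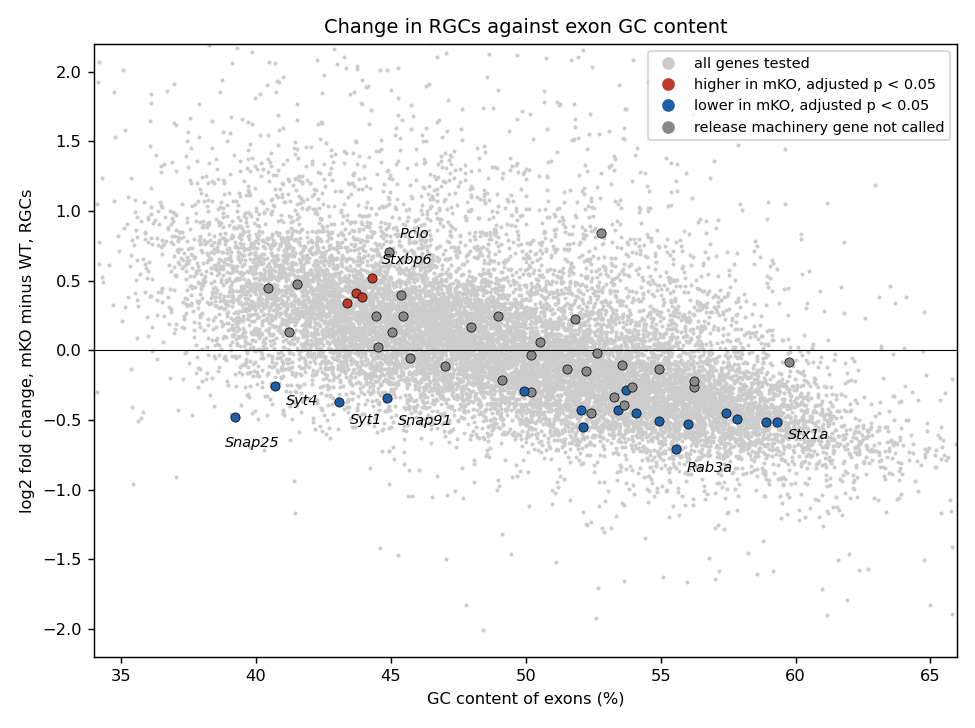
Log2 fold change, mKO minus WT, in RGCs against the GC content of exons for all genes tested (light grey) and for the release genes (large points; blue lower, red higher, dark grey not called), with the vertical axis limited to −2.2 to 2.2. The cloud slopes downward; Snap25, Syt4, Syt1 and Snap91 lie at its lower edge on the left, while Rab3a and Stx1a follow the slope on the right.

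The starts of most release genes were rich in CG dinucleotides, the letters from which CpG islands are recognised. RefSeq promoters of 300 bases on GRCm38.p6, from 250 before to 50 after the start, were at hand for 40 of the 55 genes, and for 14 of the 21 called in RGCs. Snap25, Vamp2, Syt4 and Syt13 were not among them. Taking the most upstream start of each gene, the 40 promoters held a median of 20.5 CG, with a range of 3 to 49, against a median of 7 over all 32851 promoters in the table. The 32851 include alternative starts of a gene, so the sets are unlike and the size of the difference is uncertain. The promoters of the 10 genes that fell had a median of 17.5 and those of the 4 that rose one of 21.5. Those of the 23 genes tested but not called had a median of 22. The sequences of Rab3a and Cplx1, which fell, and of Vamp4 and Unc13b, which rose, are shown 5′ to 3′ as examples of each direction from families with a paralogue described above, with each CG in capitals.
Rab3a, chr8:70754453-70754752, plus strand, 18 CG: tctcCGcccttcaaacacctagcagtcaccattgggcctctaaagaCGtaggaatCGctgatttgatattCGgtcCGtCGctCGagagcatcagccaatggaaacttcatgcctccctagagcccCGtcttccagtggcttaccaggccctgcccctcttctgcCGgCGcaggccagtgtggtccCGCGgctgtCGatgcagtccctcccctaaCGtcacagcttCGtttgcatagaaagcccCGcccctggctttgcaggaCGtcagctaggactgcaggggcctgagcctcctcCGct
Cplx1, chr5:108549978-108550277, minus strand, 24 CG: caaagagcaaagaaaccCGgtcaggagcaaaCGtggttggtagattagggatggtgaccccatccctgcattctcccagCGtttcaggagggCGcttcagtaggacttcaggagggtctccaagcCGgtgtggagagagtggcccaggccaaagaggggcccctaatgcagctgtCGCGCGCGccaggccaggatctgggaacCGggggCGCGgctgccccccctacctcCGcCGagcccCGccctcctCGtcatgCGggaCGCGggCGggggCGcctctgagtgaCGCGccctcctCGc
Vamp4, chr1:162570265-162570564, plus strand, 23 CG: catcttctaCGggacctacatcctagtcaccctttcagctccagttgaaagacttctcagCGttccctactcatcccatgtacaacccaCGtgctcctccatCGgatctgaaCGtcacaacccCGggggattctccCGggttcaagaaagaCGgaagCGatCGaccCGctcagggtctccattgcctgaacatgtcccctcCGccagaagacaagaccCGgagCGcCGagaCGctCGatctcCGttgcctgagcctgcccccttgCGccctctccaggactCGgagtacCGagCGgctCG
Unc13b, chr4:43058703-43059002, plus strand, 20 CG: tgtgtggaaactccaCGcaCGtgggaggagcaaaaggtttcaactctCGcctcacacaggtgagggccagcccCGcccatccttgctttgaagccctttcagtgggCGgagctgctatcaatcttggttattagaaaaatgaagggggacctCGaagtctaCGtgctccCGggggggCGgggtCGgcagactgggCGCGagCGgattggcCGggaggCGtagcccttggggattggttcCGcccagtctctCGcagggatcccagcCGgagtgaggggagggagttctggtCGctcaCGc

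The motif GGGCGG, the core of a GC box, was searched on both strands. It was present in 30 of the 40 promoters (75%), against 35.7% of all promoters of the same length, which include alternative starts. It was found in 7 of the 10 promoters of genes that fell and in 2 of the 4 of genes that rose. Among the promoters of genes tested but not called, 19 of 23 held it. The palindrome TGACGTCA, the full cAMP response element, was found in 1 of the 40, that of Syn1, against 1.79% of all promoters. Both motifs contain CG, so their counts and those of the CG dinucleotides are not independent.

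In non-RGCs few release genes were called, 3 of 52 tested: Syt4 rose, and 2 genes fell, Syn3 among them. Over all 15326 genes, 4.18% rose and 6.43% fell, against 1.92% and 3.85% of the release genes. All mKO libraries lay above all WT libraries in 5 genes and below them in 11, where 17.5% and 19.2% of all genes were separate. An unadjusted p under 0.05 was reached by 18 of the 52, where 29.9% of all genes reached it. The median log2 fold change was −0.22 for the release genes and −0.03 for all genes, and under scaling to total reads the former was −0.05 beside 0.14 for all genes. That scaling also left 5 calls, all of them rises (Syt4, Syt13, Rab3c, Vamp4 and Vamp8), where 8.67% of all genes rose and 2.92% fell, and neither fall was called. It turned the split of all called genes from 39.4% to 74.8% higher. At an unadjusted p under 0.05 with a 1.5-fold change, Syt4, Syt13, Rab3c and Vamp8 were higher and Syn3, Bsn and Rims4 lower, where 8.89% and 6.79% of all genes passed.

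Syt4, a synaptotagmin of dense-core and trafficking vesicles, had 583, 627 and 686 normalised reads in mKO non-RGCs and 309, 353 and 293 in WT non-RGCs. All mKO libraries were well above all WT libraries, a 1.98-fold change (log2 0.99 ± 0.15, adjusted p = 0.00815). The call remained with the GC trend removed (0.80, adjusted p = 0.0471) and with both trends removed (0.79, adjusted p = 0.0452), and was lost when mKO library B was left out. With the GC trend removed, 0.848% of all genes rose and 0.579% fell, and with both trends removed 0.635% and 0.862%. Syn3, a synapsin of young neurons, had 82.5, 53.7 and 39.5 against 144, 103 and 118 (−1.09 ± 0.30, adjusted p = 0.0468). The groups of Syn3 were separate, but the fall was called in only 1 of the 6 fits that left out a library.

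Rab3a, Vamp2, Snap25, Sv2a and other genes named for RGCs above were below WT in non-RGCs without being called, and the log2 fold changes of Snap25, Unc13a, Cplx1 and Stx1a changed sign when scaled to total reads. Rab3a had 640, 807 and 966 normalised reads in mKO and 1005, 1179 and 1005 in WT (−0.42, 95% interval −0.79 to −0.05, adjusted p = 0.128). Vamp2 had 1241, 1589 and 1649 against 1906, 1879 and 1901 (−0.36, adjusted p = 0.108), and Sv2a had 1279, 1473 and 1503 against 1762, 2041 and 1858 (−0.41, adjusted p = 0.0562). These 3 genes had no overlap between genotypes. Snap25 overlapped, with 1295, 1383 and 1580 against 1502, 1496 and 1590 (−0.11, adjusted p = 0.56). Bsn, at 1569, 1153 and 686 against 1657, 1637 and 1930, did not overlap (−0.69, adjusted p = 0.103). Syt1 was at −0.34, Syn1 at −0.39, Rims1 at −0.48, Cplx2 at −0.20 and Unc13a at −0.16, with adjusted p between 0.0853 and 0.673. Cplx1 and Stx1a lay at −0.04 and −0.03, and Pclo at 0.19.

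Syt4 and Syt13 were below WT in every mKO library of RGCs and above WT in every mKO library of non-RGCs. Syt13 had 203, 273 and 193 normalised reads in mKO non-RGCs and 118, 133 and 155 in WT non-RGCs (0.71 ± 0.21, adjusted p = 0.0595). Of the 14894 genes tested in both fractions, 0.363% showed this pattern, and the difference between the fractions was not tested because they were normalised separately. RGC markers moved in the same way. In non-RGCs, 8 of the 12 were called higher in mKO mice, among them Thy1 with 67.0, 79.6 and 93.2 normalised reads against 4.51, 1.94 and 9.38, and Pou4f2 with 177, 199 and 130 against 47.8, 35.8 and 71.9. The exceptions were Isl1 (0.28), Gap43 (0.35), Stmn2 (0.13) and Tubb3 (−0.53). In RGCs, where 10 of the 12 were called lower, Thy1 fell by 0.73 and Pou4f2 fell by 0.44 on the log2 scale. The summed RGC markers came to 608 to 814 RPM in mKO non-RGCs and 513 to 539 in WT non-RGCs, and their part in the result for Syt4 and Syt13 was not tested.

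Release genes with strong enrichment in RGCs had estimates of both signs in non-RGCs. The 5 genes with the highest ratio of RGCs to non-RGCs were Syn2, Syt13, Syt4, Syt3 and Sv2c, and in non-RGCs their log2 fold changes were −0.47, 0.71, 0.99, −0.22 and −0.58. Syn2, Syt3 and Sv2c had low means in WT non-RGCs (4.45, 5.66 and 10.9 RPM), and their mKO and WT libraries overlapped in RPM. These genes were not called there. Rab3c, a Rab3 paralogue 4.03 times higher in WT RGCs, had 998, 1193 and 912 normalised reads in mKO non-RGCs against 679, 787 and 369 (0.82 ± 0.26, adjusted p = 0.0681). Unlike Syt4 and Syt13, it was also above WT in every RGC library, at 3531, 3775 and 3815 against 3020, 3259 and 2048 (0.44 ± 0.16, adjusted p = 0.0711). Vamp8, a SNARE of secretory and blood cells, had 170, 207 and 261 in mKO non-RGCs against 116, 127 and 132 (0.74 ± 0.21, adjusted p = 0.0532). In the same libraries the summed blood markers were 50.3 to 75.1 RPM in mKO and 10.7 to 17.0 in WT, and their part in the value for Vamp8 was not tested.

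**Figure D5:**
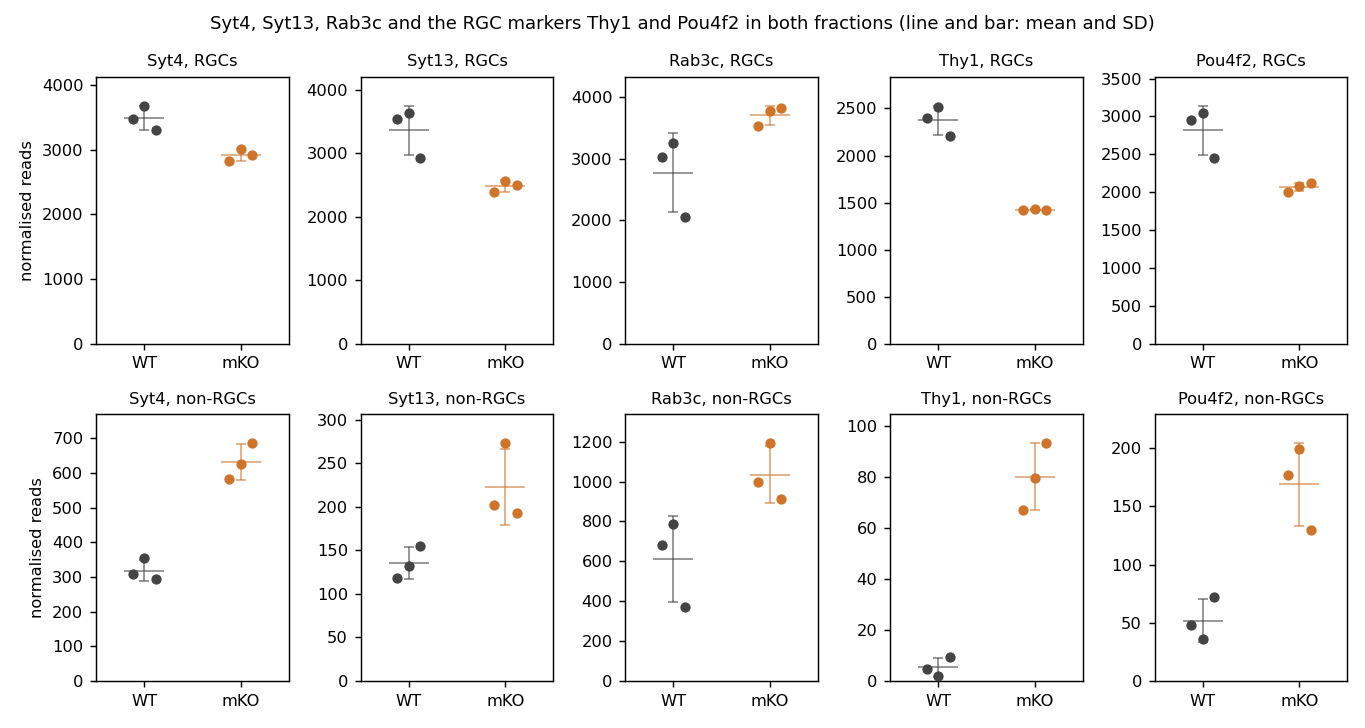
Normalised reads per library of Syt4, Syt13 and Rab3c and of the RGC markers Thy1 and Pou4f2 in RGCs (upper row) and non-RGCs (lower row); each point is a library, lines and bars are the mean and SD of 3, and every axis starts at 0. In the upper row all but Rab3c are lower in mKO, and in the lower row all 5 genes are higher in mKO.

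Among other genes of the vesicle cycle, falls were also more frequent than rises in RGCs. From a list of 62 genes, 60 were tested in RGCs, of which 26 fell and 4 rose where 21.2% and 16.3% of all genes did so, and the median log2 fold change was −0.18. With the GC trend removed, 11 fell and 1 rose, beside 8.92% and 4.93% of all genes. With both trends removed 5 fell and none of the 60 rose, beside 4.33% and 1.84%. Of the 25 genes listed under endocytosis and recycling, 13 fell and none of the 25 rose. Under fusion and priming 6 of 14 fell and 3 rose. Under vesicle membrane proteins and transporters 5 of 12 fell and 1 rose. Of the 9 genes listed under active zone scaffold, not all of them established scaffolds, 2 fell. The falls of smallest adjusted p were Syp (synaptophysin, the most abundant membrane protein of the vesicle), Ap2a1 (a subunit of the clathrin adaptor AP-2) and Git1 (an active zone scaffold), at log2 fold changes of −0.63, −0.68 and −0.54 and adjusted p of 0.000651, 0.000651 and 0.000674. The rises of smallest adjusted p were Sypl (0.77, adjusted p = 0.000866), Snap23 (0.61, adjusted p = 0.00291) and Rab27b (0.89, adjusted p = 0.00694), which serve secretion in many cell types. Syp remained called with both trends removed (−0.43, adjusted p = 0.0112). The other named genes did not. On that scale Ap2a1 was at −0.13 (adjusted p = 0.249) and Git1 at 0.0088 (adjusted p = 0.924). Sypl was at 0.19 (adjusted p = 0.171), Snap23 at 0.21 (adjusted p = 0.202) and Rab27b at 0.29 (adjusted p = 0.366).

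In non-RGCs, 59 of the 62 were tested, and 8 fell and 3 rose, where 6.43% and 4.18% of all genes did. The rises were Slc18a2, the vesicular monoamine transporter, with a log2 fold change of 1.55 (adjusted p = 0.00709), Slc17a6 (VGLUT2), the vesicular glutamate transporter used by RGCs, at 1.25 (adjusted p = 0.0185), and Synpr at 0.60 (adjusted p = 0.0433). Their mean normalised reads were 104, 49.8 and 283 in WT non-RGCs and 1788, 2545 and 1328 in WT RGCs, with each fraction normalised separately. In the same mKO non-RGC libraries 8 of the 12 RGC markers were called higher. The part of RGC RNA in these rises was not tested. The falls of smallest adjusted p were Doc2b (−0.86), Pip5k1c (−0.67) and Ap2a1 (−0.75), with adjusted p of 0.00709, 0.00858 and 0.00986. With the GC trend removed, 1 fell and 1 rose, beside 0.579% and 0.848% of all genes. The rise was Slc18a2 (1.51, adjusted p = 0.0221), and the fall was not among those named. Doc2b, Pip5k1c and Ap2a1 had adjusted p of 0.0525, 0.219 and 0.112, and Slc17a6 and Synpr 0.0545 and 0.204.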

How the data were processed

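Poly-A RNA of RGCs and non-RGCs from WT and mKO retinas at P0 was sequenced single-end, with 3 libraries per group from independent RNA extractions. Per the labels and the submitters' processing notes, the authors aligned reads to mm10 with STAR 2.3.1z4, kept primary alignments, removed duplicates and counted reads with featureCounts. The deposited tables, 1 for each fraction, hold a signal per gene and genotype, which is the mean of the reads divided by the DESeq size factors of the authors over 3 libraries. The ratio of WT to mKO, its log2 and the p-values that the authors deposited beside it were not used.

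The reads of each library were recovered from the genotype means, which are printed to 15 digits: for 100% of the genes with reads there was exactly 1 set of whole reads in 3 libraries that gives the mean. Since these libraries have no replicate numbers, letters name them by depth within each group, A for the most reads and C for the fewest. They held 10600964 to 13014004 reads in RGCs and 7139633 to 12828281 in non-RGCs. Counts as low as 3 reads were taken as the floor.

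Within each table, log2(normalised reads + 1) was tested for each gene whose mean reached 10 normalised reads in WT or in mKO, with limma 3.58.1 (R 4.3.3) with a mean-variance trend. P-values are two-sided and Benjamini-Hochberg adjusted over all genes tested, and a gene was called at an adjusted p under 0.05. An exact permutation test of 3 against 3 libraries cannot go below 0.1. Fold changes on this scale understate the change of low genes. The fractions were not tested against each other. The pipeline was tested on simulated data: where counts were drawn with a GC trend that differed between genotypes, the test without GC removal called a large share of the genes made without a change, and removing the trend left few of these calls. The simulated trend was built on the same GC values that the removal uses. It therefore cannot show whether the removal is right for these data. Exon GC content and length came from the GRCm38 annotation and promoters from RefSeq, GRCm38.p6. Alternatives were a pseudocount of 0.5, no filter, scaling to total reads or to the upper quartile, voom weights, removal of the GC trend alone or with that of reads per base, a fold threshold of 1.5, and leaving out each library.

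The rule on symbols used no measured value, but earlier results of these data were known when the genes and lists were chosen. Values in every library were given for core genes and for called genes, up to the 15 of smallest adjusted p in each fraction. Some genes counted among the 55 are not reported here by name. Other vesicle cycle genes were named if among the 3 of smallest adjusted p in each direction. Further genes named with values, Unc13b and Stxbp6 among them, were chosen after their values were seen.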

Additional observations from a re-analysis of the deposited data

Results flagged for a closer look

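Syt4 and Syt13 moved in opposite directions in the fractions: every mKO library lay on one side of every WT library in RGCs and on the other side in non-RGCs. The log2 fold change of Syt4, mKO minus WT, was −0.26 in RGCs and 0.99 in non-RGCs. That of Syt13 was −0.43 in RGCs and 0.71 in non-RGCs, where the adjusted p of limma was 0.0595. The difference between the fractions was not tested. Of the 14894 genes tested in both fractions, 54 had this pattern, and the summed RGC markers moved in the same directions in both fractions.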

How the results depend on the processing

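No paired analysis was possible because the recovered libraries carry no replicate number. In RGCs the 21 calls remained with a pseudocount of 0.5, no filter and voom weights. The number of release genes called was 7 with the GC trend removed, 1 when the reads-per-base trend was removed as well, 2 at an unadjusted p under 0.05 with a fold of at least 1.5, and 1 at an adjusted p with that fold. Leaving out a library gave 14 to 35, the last without WT library C. For the other vesicle cycle genes in RGCs the main count was 30, the GC trend removed gave 12 and both trends removed gave 5. In non-RGCs the main count of release genes was 3, against 1 with no filter, 5 scaled to total reads, 1 with the GC trend removed and 7 at an unadjusted p with the fold, and leaving out a library gave 0 to 4, the 0 being without mKO library B, by limma. Of the other vesicle cycle genes in non-RGCs, 11 were called in the main test, 2 with the GC trend removed, 1 with both trends removed and 1 to 14 when a library was left out.

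Directions that changed in RGCs were, on the log2 scale, Bsn (0.0402 scaled to total reads, 0.44 with GC removed, 0.38 with both trends removed, −0.36 to 0.12 without a library), Rims1 (0.0924 scaled to total reads, 0.0488 to the upper quartile, 0.0724 with GC removed, 0.17 with both removed, −0.23 to 0.0805 without a library) and Unc13a (0.18 with GC removed, 0.20 with both removed). With both trends removed, called genes also crossed 0: Cplx1 at 0.00046, Cplx2 at 0.19, Stx1a at 0.0622, Sv2a at 0.026, Syn1 at 0.0692, Syt11 at 0.0723, Syt13 at 0.016 and Syt5 at 0.0685. In non-RGCs, Cplx1 went to 0.13 scaled to total reads, 0.0894 to the upper quartile, 0.24 with GC removed and 0.24 with both removed, with −0.18 to 0.12 without a library. Stx1a went to 0.14, 0.10, 0.38 and 0.32 in the same order, with −0.33 to 0.23 without a library. Unc13a went to 0.0093 scaled to total reads and 0.0715 with GC removed, with −0.41 to 0.0703 without a library. Snap25 went to 0.0594 scaled to total reads and 0.015 to the upper quartile, Cplx2 to 0.098 with both removed, and Pclo to −0.0521 with both removed and −0.18 to 0.52 without a library. The cause of these changes was not tested.

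The 3 libraries of a group limit the precision, and the shallowest mKO non-RGC library held 7139633 reads.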
